A study of Mus musculus with 102 samples.

Results

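Expression of 9 genes grouped here as vascular was followed through brain and spleen of ageing mice. A second spleen experiment with mice labelled mTOR was followed too. Which cells of each organ made the RNA of these genes was not tested. The 9 genes are Vwf, Podxl, Acer2, Abca8a, Pecam1, Cldn5, Cdh5, Tek and Kdr, of 51810 gene rows in each table. Vwf, Podxl, Acer2 and Abca8a were chosen by the measurements described here, because each was higher at 20 than at 3 months of age in both tissues. The other 5 were taken as general endothelial genes. The ageing study comprised brain and spleen of 45 male mice labelled BL6J and WT, with 7 mice of 3 months, 9 of 5 months, 8 of 8 months, 9 of 14 months, 7 of 20 months and 5 of 26 months. The mTOR study comprised spleens of 12 male mice with the same strain label, 3 in each of 4 groups: WT at 5 months, mTOR at 5 months, WT at 21 or 23 months and mTOR at 21 or 23 months. The labels give this genotype by the name mTOR alone and describe no allele, so what the mice carry is known here only by that name. All groups were bulk RNA-seq of a whole organ, so fewer cells of a type and less RNA per cell cannot be told apart.

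As background, endothelial cells line every vessel. They are held together by the adhesion proteins VE-cadherin (Cdh5), PECAM-1 (Pecam1) and claudin-5 (Cldn5), the last a main component of the blood-brain barrier, and they receive VEGF through Kdr and angiopoietins through Tek. Von Willebrand factor (Vwf) is stored in the Weibel-Palade bodies of endothelial cells and also in the alpha granules of platelets and megakaryocytes. Podocalyxin (Podxl) is a CD34-family sialomucin of the luminal endothelial surface that is also made by megakaryocytes and haematopoietic progenitors. Acer2 is the Golgi alkaline ceramidase, which releases sphingosine from ceramide. Abca8a is an ATP-binding cassette transporter of the ABCA5 subfamily. Pecam1 is also carried by platelets and many leukocytes, which make up most of a spleen.

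The genes do not overlap one another, though some share a chromosome: Vwf and Podxl (6), Acer2 and Tek (4), and Abca8a and Pecam1 (11). Of the 9, 5 have an entry in the RefSeq promoter table of build GRCm38.p6. The bases directly before the start are shown for a pair of raised genes (Acer2, Abca8a) and a pair of general endothelial genes (Tek, Kdr), to set members of both kinds side by side. Each is written 5′ to 3′ on the strand of the gene. Capitals mark GGAAG or its reverse complement CTTCC, letters found at the core of many sites of ETS factors, a family that includes the endothelial regulators Erg and Fli1.
Acer2, chr4:86874164-86874413, plus strand: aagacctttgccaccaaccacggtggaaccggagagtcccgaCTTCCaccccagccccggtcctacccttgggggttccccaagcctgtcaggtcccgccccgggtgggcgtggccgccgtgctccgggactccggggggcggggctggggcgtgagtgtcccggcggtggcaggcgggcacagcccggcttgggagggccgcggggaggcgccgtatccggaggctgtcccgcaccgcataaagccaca
Abca8a, chr11:110095938-110096187, minus strand: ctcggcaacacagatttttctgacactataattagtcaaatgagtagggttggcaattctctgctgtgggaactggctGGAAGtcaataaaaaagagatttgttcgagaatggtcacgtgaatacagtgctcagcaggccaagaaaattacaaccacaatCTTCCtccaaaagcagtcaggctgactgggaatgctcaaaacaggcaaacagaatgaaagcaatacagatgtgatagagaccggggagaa
Tek, chr4:94739039-94739288, plus strand: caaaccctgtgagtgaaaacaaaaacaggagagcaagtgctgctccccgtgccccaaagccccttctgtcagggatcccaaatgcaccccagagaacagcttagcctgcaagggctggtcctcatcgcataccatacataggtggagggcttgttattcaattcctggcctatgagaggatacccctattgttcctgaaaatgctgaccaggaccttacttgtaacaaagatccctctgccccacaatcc
Kdr, chr5:75978456-75978705, minus strand: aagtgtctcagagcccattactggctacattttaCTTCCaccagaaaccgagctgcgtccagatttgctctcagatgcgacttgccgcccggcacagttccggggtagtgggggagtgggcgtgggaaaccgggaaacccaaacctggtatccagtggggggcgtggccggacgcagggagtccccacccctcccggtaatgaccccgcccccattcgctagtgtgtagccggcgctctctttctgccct
GGAAG on either strand occurred once in the window of Acer2, 2 times in that of Abca8a, once in that of Kdr, and not at all in those of Tek and Cldn5. Of 32851 such windows of 250 bases before mouse gene starts, 64.1% held it, so its presence in 3 of 5 is close to the general share. The letters GGGCGG, searched on both strands, occurred 2 times before Acer2 and Kdr and once before Cldn5, against 32.7% of all windows with a match. The window of Acer2 had 73.2% G or C, that of Kdr 61.6%, that of Tek 51.2% and that of Abca8a 43.2%. A match or its lack describes these letters only.

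In GENCODE M21 (GRCm38) Vwf spans chr6:125546774-125686679 on the plus strand and Podxl chr6:31519488-31563981 on the minus strand. Acer2 spans chr4:86874396-86934822 (plus) and Abca8a chr11:110025634-110095978 (minus). Pecam1 spans chr11:106654217-106750628 (minus), Cldn5 chr16:18776847-18778262 (plus), Cdh5 chr8:104101625-104144511 (plus), Tek chr4:94739289-94874976 (plus) and Kdr chr5:75932827-75978458 (minus). Of all 50-base windows of the longest coding transcript, none of 8 members recurred in transcripts of another gene. The exception was Abca8a, with 1.89% of its windows shared with its neighbouring paralogue Abca8b, so few of its reads could have been split with that gene.

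Per kilobase of exon, the members stood in different orders in the 2 organs. In brain Cldn5 was highest, at 16.2 ± 3.08 reads per kilobase, scaled to the library's gene reads as in RPKM (SD, n = 43), followed by Podxl at 6.79 ± 1.28 and Abca8a at 6.37 ± 1.52, whose ranges overlapped. Tek (4.204 ± 0.529), Pecam1 (3.71 ± 0.554), Acer2 (2.27 ± 0.812), Cdh5 (1.95 ± 0.352) and Kdr (1.80 ± 0.356) came next, with ranges that overlapped between neighbours, and Vwf was lowest at 0.791 ± 0.368. In spleen Pecam1 was highest at 78.0 ± 20.7 (SD, n = 45), and Cldn5 (16.8 ± 16.0), Cdh5 (9.27 ± 4.84), Tek (6.52 ± 4.06), Kdr (5.30 ± 3.73) and Abca8a (5.08 ± 3.62) followed with overlapping ranges. Podxl was at 3.39 ± 1.74, Vwf at 2.18 ± 3.18 and Acer2 at 0.977 ± 0.663 in spleen. The SD of Vwf in spleen exceeded its mean, which no other member showed. All other values below are normalised reads, the reads of a gene divided by a library factor as the authors deposited them, and are compared between samples of 1 gene only.

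Read totals recovered from the tables were 4072076 to 13655235 in brain, 3031246 to 11702988 in spleen and 7733716 to 14112504 in the mTOR study. A pair of brain libraries at 5 months (replicates 1 and 6) and another at 8 months (replicates 4 and 7) differed by less than the sampling noise, with variance ratios of 0.475 and 0.590 against at least 1.26 for every other pair, and each pair was counted as 1 sample, leaving 43 brain samples. Marker genes followed the labelled organs: 11 B cell genes summed to between 122 and 258 normalised reads in brain samples and to at least 21933 in every spleen of the ageing study. Some spleen libraries stood apart in the genes described here. The 3-month spleen replicate 5 had the highest value of its age for Podxl, Acer2, Abca8a, Cldn5, Cdh5, Tek and Kdr, and its 10 vascular fibroblast genes summed to 6632 normalised reads against a median of 2130 at that age. Malat1, a nuclear RNA used below as a sign of RNA quality, made up 0.806% of the reads of that library. The median share at 3 months was 1.71%. The 26-month replicate 1 and the 20-month replicate 2 had summed levels of 15 platelet and megakaryocyte genes of 40433 and 22768, against at most 5539 in the other 43 spleens.

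The values that chose the first 4 genes are the 20- and 3-month samples, and they are described without a test. With a threshold of adjusted p under 0.05 in limma, 6 of 13673 genes were higher at 20 months in both tissues, where 0.174% of genes in brain and 10.7% in spleen passed in either direction. Besides the 4 members these were the unnamed transcripts Gm37013 and 9330111N05Rik. Just inside stood Podxl and Vwf, with a larger adjusted p of 0.0350 and 0.0351, and just outside Cp and F13a1, both at 0.0507.

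Brain Vwf was 38.2, 56.5 and 61.8 (lowest, median and highest of 7) at 3 months and 70.4, 154 and 212 (of 7) at 20 months, a mean difference of 2.52-fold. Every 20-month brain was above every 3-month brain. Brain Acer2 was 63.3, 93.9 and 98.2 at 3 months and 101, 173 and 274 at 20 months, a 1.94-fold difference with no overlap. Brain Abca8a was 158, 213 and 266 at 3 months and 292, 348 and 399 at 20 months, 1.62-fold, and Podxl was 174, 255 and 283 against 287, 313 and 421, 1.39-fold. Neither pair of groups overlapped. These samples chose the raised genes, so the lack of overlap adds nothing to that choice. The share of all genes that separate so was not counted. The general endothelial genes overlapped between the same samples, with differences from 0.993-fold for Tek to 1.26-fold for Pecam1, and Cdh5 averaged 54.3 ± 6.79 at 3 months and 60.4 ± 8.32 at 20 months (SD, n = 7 each). Set against Cdh5 in the same brain, the median ratio of Vwf was 0.952 at 3 months, 1.52 at 14 months, 2.49 at 20 months and 1.92 at 26 months. The brains of 3 and 20 months chose Vwf and not Cdh5, so the difference between their ratios repeats that choice.

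**Figure D1:**
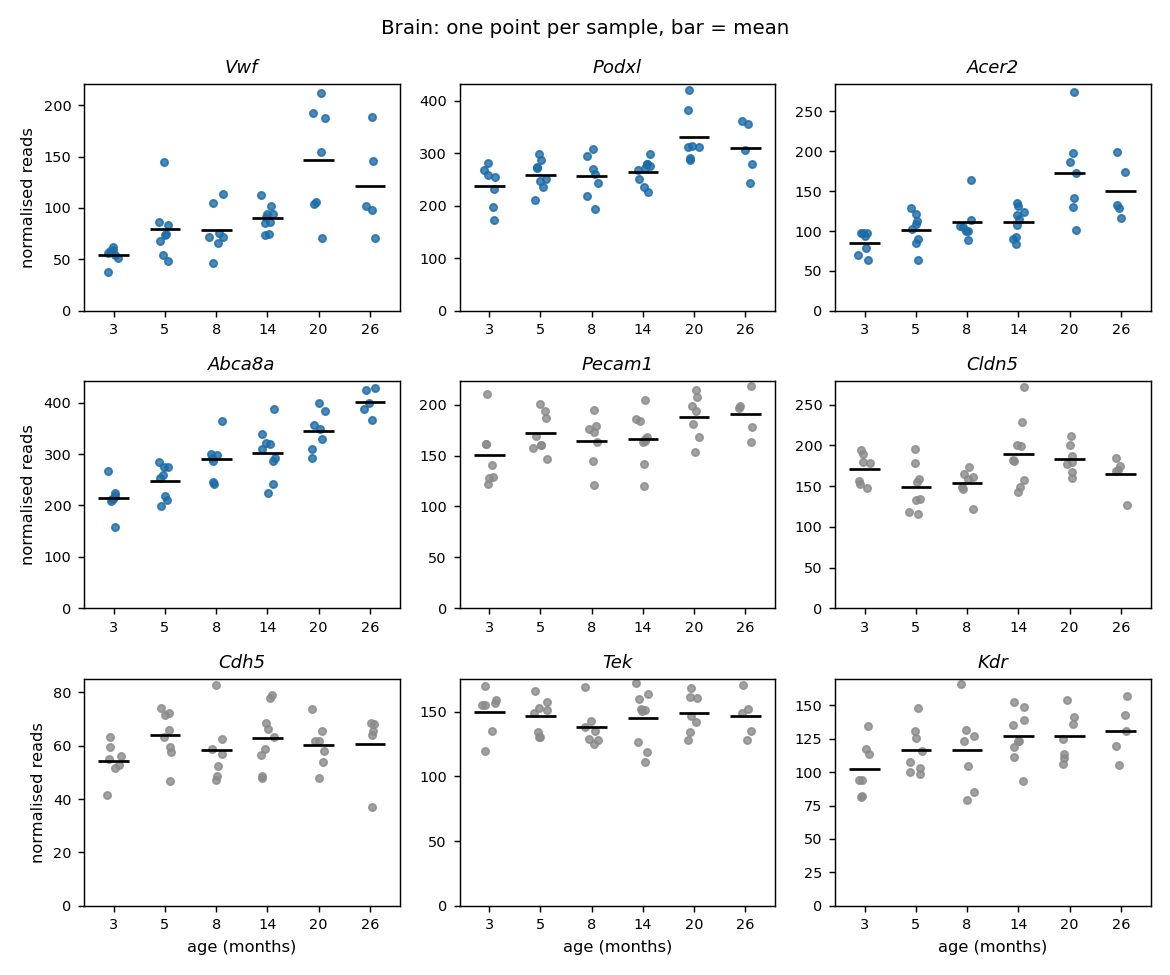
Normalised reads of the 9 genes in brain (vertical axis) by age in months (horizontal axis); each point is 1 sample, the bar is the mean, blue marks the 4 genes chosen for their 20-month level and grey the general endothelial genes. Vwf averaged 54.3 at 3 months and 146 at 20 months, and the means of Cdh5 lay between 54.3 and 63.9.

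In spleen the same 4 genes differed between 20 and 3 months by 2.67-fold for Acer2, 2.53-fold for Abca8a, 2.45-fold for Vwf and 1.89-fold for Podxl. Acer2 was 19.7, 28.8 and 47.1 (lowest, median, highest) at 3 months and 50.4, 65.2 and 146 at 20 months, with no overlap. These samples chose Acer2 too, and the share of all genes that separate so was not counted. Vwf was 61.3, 99.1 and 142 at 3 months and 121, 199 and 1161 at 20 months, and the groups overlapped. Abca8a and Podxl overlapped through single libraries: 3-month replicate 5 had 381 of Abca8a and 213 of Podxl against at most 126 and 89.6 in the other 6, and 20-month replicate 2 had 99.0 of Abca8a. Without 3-month replicate 5 the log2 difference of Abca8a was 1.60 in place of 1.34 and that of Podxl 1.13 in place of 0.92. Without 20-month replicate 2 the log2 difference of Vwf was 0.92 in place of 1.29. Among the general genes Tek differed by 2.44-fold in spleen and Cdh5, Kdr and Cldn5 by 1.43-, 1.49- and 1.23-fold. These too were larger without 3-month replicate 5, with log2 differences of 1.55 in place of 1.28 for Tek, 0.73 in place of 0.51 for Cdh5, 0.86 in place of 0.58 for Kdr and 0.66 in place of 0.30 for Cldn5. Pecam1 was lower at 20 months, with a mean of 2164 ± 325 against 3540 ± 795 (SD, n = 7 each), a log2 difference of -0.69, or -0.80 without 3-month replicate 5. Against Cdh5 in the same spleen, the median ratio of Vwf was 0.491 at 20 months and 0.479 at 3 months, unlike the ratios in brain. Malat1 made up 0.774% to 3.17% of reads in the spleens of 20 months and 0.806% to 1.92% at 3 months. The part of RNA quality in these differences was not tested.

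The means of the mice of 5, 8, 14 and 26 months did not choose the members and allow tests. All ages of a table shared a common estimate of the spread, so these tests are not fully separate from the choice. A fit without the 3- and 20-month libraries was among the alternatives. In brain, 26 months against the mean of 5 and 8 months asked whether the genes were still higher at a later age. Abca8a rose, at 367, 387, 399, 425 and 429 normalised reads in the 5 brains of 26 months against 200 to 286 at 5 months and 242 to 365 at 8 months, with no overlap between the ages. Its log2 difference was 0.59 ± 0.10 (SE), limma adjusted p = 0.000432. It was the 1 member of 9 that passed, where 0.444% of 15546 genes passed in either direction. The share of all genes whose ages do not overlap in this way was not counted. The brain means of Abca8a were 247, 290, 303 and 401 at 5, 8, 14 and 26 months, and the step to 14 months did not pass (below). The means at 3 and 20 months, 214 and 346, belong to the samples that chose the gene. Their order was set by that choice and adds nothing to the test.

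Vwf, Acer2 and Podxl had positive differences in the same test and did not pass. Vwf was 71.1, 97.9, 102, 146 and 189 in the 26-month brains and averaged 79.1 ± 29.6 at 5 months (n = 8) and 78.5 ± 23.1 at 8 months (n = 7), with a log2 difference of 0.60 ± 0.20 and adjusted p = 0.290. For Acer2 the log2 difference was 0.49 ± 0.16 (adjusted p = 0.228), and for Podxl 0.26 ± 0.10 (adjusted p = 0.488). At 26 months their mean levels, 121 for Vwf, 150 for Acer2 and 310 for Podxl, lay between those of 14 and 20 months. The 5 general endothelial genes had log2 differences from -0.03 for Cdh5 to 0.19 for Pecam1, none called, with 95% intervals that reached at most 0.44. In the brains of 14 months against 5 and 8 months, 0% of genes passed, none among the members (581 of 15546 genes had an unadjusted p under 0.05; edgeR and DESeq2 called 0), and Abca8a stood at a log2 difference of 0.17 ± 0.08, adjusted p = 0.971. Between 26 and 14 months 0.167% of genes passed and no member, with Abca8a at 0.42 ± 0.11 and adjusted p = 0.141 in limma. DESeq2 called that difference (0.41, adjusted p = 0.0416). Without 26-month replicate 1 the counts of genes called over the table fell from 69 to 35 and from 26 to 7, without replicate 4 to 43 and 17, and without replicate 5 the second was 17; the brain call of Abca8a held in each.

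Lists around the members moved little in brain at 26 months. Of 5 ABCA5-subfamily transporters tested, Abca8a alone was called. Its paralogues stood at log2 differences of 0.05 for Abca8b, 0.11 for Abca9, 0.28 for Abca6 and 0.07 for Abca5. None of 21 tested pan-endothelial genes passed, with a median of 0.10 against -0.01 over all genes, and 17 were positive, the smallest p belonging to Sox18 (0.51 ± 0.20, adjusted p = 0.477), an endothelial transcription factor. None of 14 genes of the Weibel-Palade body and von Willebrand axis passed (median 0.05), led by the platelet receptor Gp1ba at 0.94 ± 0.31 with adjusted p = 0.278. None of 10 VEGF pathway genes passed (median 0.06), and none of 4 angiopoietin-Tie genes (median 0.12). The 12 myelinating oligodendrocyte genes were all positive with a median of 0.25 and none was called. Microglial complement genes rose, with C1qb at 0.83 ± 0.14 and adjusted p = 0.000326. The summed level of the 15 platelet and megakaryocyte genes ranged from 162 to 233 in 3-month, 198 to 258.6 in 5-month, 210 to 273 in 8-month, 206 to 258 in 14-month, 254 to 277.99 in 20-month and 248 to 307 in 26-month brains. The 26-month range overlapped those of 5 and 8 months, and the part of this level in the Vwf values was not tested.

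In spleen, 14 months against the mean of 5 and 8 months moved another set of the 9 genes. Abca8a, Tek and Cldn5 rose, 3 members of 9, where 3.45% of 16243 genes passed. Abca8a was 99.2, 357 and 467 (lowest, median and highest of 9) at 14 months, 70.9, 117 and 151 (of 9) at 5 months and 66.9, 116 and 197 (of 8) at 8 months, a log2 difference of 1.25 ± 0.24 (adjusted p = 0.00338). Every spleen of 14 months but replicates 8 and 9 was above every spleen of 5 and 8 months. Tek, the angiopoietin receptor, was 109, 231 and 399 at 14 months and 54.2, 113 and 268 at 5 months, a log2 difference of 1.03 ± 0.24 (adjusted p = 0.00905). Cldn5 differed by 1.30 ± 0.39 with adjusted p = 0.0473, and lost its call without the libraries under 5000000 reads (1.18, adjusted p = 0.121), without the filter on low values (adjusted p = 0.0804) and with TMM scaling (adjusted p = 0.0506). Podxl (0.59, adjusted p = 0.0843), Kdr (0.67, 0.173), Cdh5 (0.49, 0.197), Acer2 (0.34, 0.465) and Vwf (0.15, 0.847) did not pass in limma, nor did Pecam1 (-0.27, 0.311). With Malat1, a nuclear RNA used as a sign of RNA quality, as a covariate, Podxl (0.63, adjusted p = 0.0112), Cdh5 (0.53, 0.0304) and Kdr (0.74, 0.00537) passed as well.

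Endothelial genes that are not members rose in the same spleens. Of 23 pan-endothelial genes tested 10 were called higher and none lower, with a median log2 difference of 0.86 against 0.01 over all genes; the sialomucin Emcn differed by 1.87 ± 0.33 (adjusted p = 0.00153) and endoglin, Eng, by 1.05 ± 0.19 (adjusted p = 0.00173). Of 5 angiopoietin-Tie genes 3 were called higher: Tek, its partner receptor Tie1 (0.91) and the phosphatase Ptprb (0.49), which acts on Tek. Of 10 VEGF pathway genes 1 was called higher, the co-receptor Nrp2 (0.56). Of 5 ABCA5-subfamily genes 2 were called higher, Abca8a and Abca8b (0.85). Stromal genes were higher too: 3 of 9 vascular fibroblast genes, among them Pdgfra (0.83) and Col3a1 (1.14), 2 of 8 vascular smooth muscle genes (Mylk 0.76, Myl9 1.02) and 4 of 10 genes of splenic sinus endothelium (Lyve1, Stab1, Stab2 and Fabp4) were called higher. The summed level of the fibroblast genes ranged from 2103 to 6923 at 14 months, 1703 to 3260 at 5 months and 1797 to 3479 at 8 months, and its part in the endothelial differences was not tested.

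At 26 months the spleen differed in other members. Against the mean of 5 and 8 months Vwf and Podxl rose and Pecam1 fell, where 7.87% of genes passed in either direction, so 3 of 9 is to be read against a high background. Vwf was 2238, 322, 129, 129 and 277.9 in 26-month replicates 1 to 5, with a log2 difference of 1.21 ± 0.39 and adjusted p = 0.0470. Podxl was 345, 120, 108, 163 and 135, with 1.00 ± 0.25 and adjusted p = 0.0180. Replicate 1 was highest for both, and without it neither passed: Vwf stood at 0.51 with adjusted p = 0.515 and Podxl at 0.72 with adjusted p = 0.267. Over all genes, the same omission took the count of calls from 1279 to 16. Leaving out replicate 5 ended both calls too (Vwf 1.26, adjusted p = 0.156; Podxl 1.06, adjusted p = 0.0744), with 38 genes called, and leaving out replicate 2 ended that of Vwf (1.21, adjusted p = 0.0862), with 301 called. Without replicate 3 the count was 3988. Vwf also lost its call without the filter on low values (adjusted p = 0.0772) and with the compared ages fitted alone (adjusted p = 0.0721), and both genes lost theirs with Malat1 as a covariate (0.98, adjusted p = 0.227, and 0.69, adjusted p = 0.129). Malat1 made up 0.579% to 3.04% of reads at 26 months.

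Pecam1 was 1964, 1620, 4015, 2683 and 1448 in the 26-month spleens against means of 3621 ± 482 at 5 months (n = 9) and 3505 ± 805 at 8 months (n = 8), a log2 difference of -0.68 ± 0.18 (adjusted p = 0.0204). Replicate 3 lay above both means and the other 4 lay below the lowest 5-month value of 2854, though replicate 4 lay within the range of the 8-month spleens, which began at 2336. The call was lost without replicate 1 (-0.64, adjusted p = 0.190), 2 (-0.58, 0.0725) or 5 (-0.53, 0.163), and with Malat1 as a covariate (-0.46, 0.141). In the same comparison 3 of 10 B cell genes (Cr2, Fcer2a, Pax5) and 3 of 11 T cell genes (Cd4, Lef1, Tcf7) were called lower, with medians of -0.51 and -0.62. Without replicate 1 none of either list was called, and the medians were -0.090 and -0.31. The summed level of the 11 B cell genes was 49884 (median) at 26 months, up to 120778, against 51702 at 5 and 52480 at 8 months. The part of these cells in the Pecam1 value was not tested. Acer2 (0.79, adjusted p = 0.0778), Cldn5 (0.76, 0.300), Kdr (0.54, 0.311), Cdh5 (0.46, 0.256), Tek (0.38, 0.407) and Abca8a (0.07, 0.906) did not pass in limma. Acer2 passed with edgeR (1.05, adjusted p = 0.0127), with DESeq2 (1.03, 0.0111), without the shallow libraries (0.91, 0.0388) and without replicate 3 (0.98, 0.0212). With other single spleens of 26 months left out, the Acer2 difference went as low as 0.40 and its limma adjusted p as high as 0.548. Replicate 1 had an Acer2 of 153, and the next spleen of that age 51.0.

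In spleen at 26 months Abca8a was near its level of 5 and 8 months, whereas its brain mean was highest at that age. It was 107, 127, 115, 173 and 89.1 in the 5 spleens of 26 months, and fell by 1.19 on the log2 scale from 14 to 26 months (SE 0.32, adjusted p = 0.0243), where 5.48% of genes passed. It was the 1 member called there in limma. The call was lost without 26-month replicate 1, 2 or 5 (adjusted p = 0.0925, 0.0568 and 0.112, with differences of -1.15, -1.21 and -1.08) and with the compared ages fitted alone (adjusted p = 0.0678). All 5 spleens of 26 months were below every spleen of 14 months but replicates 8 and 9, which had 99.2 and 163. Vwf, at 1.06 with adjusted p = 0.140 in limma, passed with edgeR (1.98, 0.00431), with DESeq2 (1.95, 0.00222), without the shallow libraries (1.39, 0.0161) and without 26-month replicate 3 (1.39, 0.0294) or 4 (1.39, 0.0457). With 1 spleen of 26 months left out at a time, however, this Vwf difference went as low as 0.36 and its limma adjusted p as high as 0.772. Replicate 1 had a Vwf of 2238, and the next spleen of that age 322. Pecam1 passed without replicate 3 (-0.64, 0.0205), and Cldn5 with Malat1 as a covariate (-1.48, adjusted p = 0.0123, against -0.54 and 0.599 without it). Over all genes the 890 calls became 234, 349, 2426 and 187 without replicates 1, 2, 3 and 5.

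**Figure D2:**
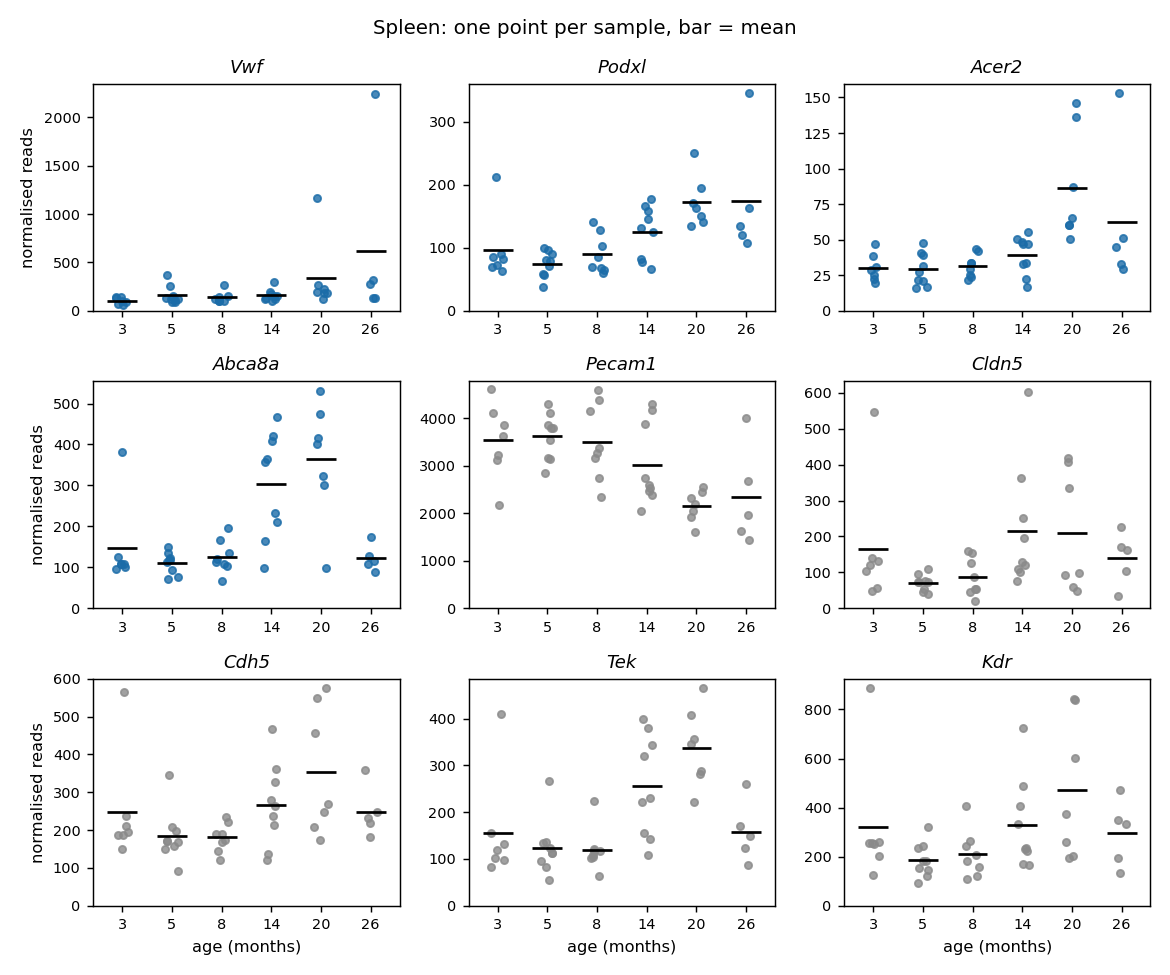
Normalised reads of the 9 genes in spleen (vertical axis) by age in months (horizontal axis); each point is 1 library, the bar is the mean, blue marks the 4 genes chosen for their 20-month level and grey the general endothelial genes. A single 3-month library is high for Podxl, Abca8a and 4 general genes, and the Vwf means at 20 and 26 months, 335 and 619, include single libraries at 1161 and 2238.

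Vwf in spleen moved with platelet and megakaryocyte genes. In the comparison of 26 months with 5 and 8 months 9 of 15 such genes were called higher and none lower, with a median log2 difference of 1.65; the fibrinogen receptor subunit Itga2b differed by 1.77 ± 0.44 (adjusted p = 0.0164), the von Willebrand receptor subunit Gp1ba by 1.97 ± 0.53 (0.0240), the collagen receptor Gp6 by 1.65 ± 0.43 (0.0205) and platelet factor 4, Pf4, by 1.85 ± 0.51 (0.0267), all in limma. Of 17 genes of the Weibel-Palade body and von Willebrand axis 5 were called higher, and Gp1ba and Gp1bb among them are platelet genes. Of 23 pan-endothelial genes 1 was called higher (Emcn, 1.68) and 1 lower (Fli1, -0.80), with a median of 0.50. These list counts did not hold without 26-month replicate 1, the 1 spleen whose omission was run for the lists. Without replicate 1, an omission chosen for the lists after seeing the data, none of the genes of the 3 lists was called, with 16 calls left in the whole table. The whole table had 38 calls without replicate 5 and 301 without replicate 2, and the lists were not counted there. The medians were then 0.87 for the 15 platelet and megakaryocyte genes, all still positive, 0.32 for the von Willebrand axis and 0.24 for the pan-endothelial genes. With Malat1 as a covariate none of them was called either, and the platelet median was 1.34. The 2 spleens with the most Vwf, 26-month replicate 1 and 20-month replicate 2, were those with the highest summed platelet and megakaryocyte level. The next in Vwf, 5-month replicate 1 at 371, had the third highest sum, 5539. Cdh5 was 233 and 209 in the first pair, within the range of the other spleens. Acer2 was also highest in those 2 libraries, at 153 and 146. The part of megakaryocytes in the Vwf and Acer2 values was not tested.

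**Figure D3:**
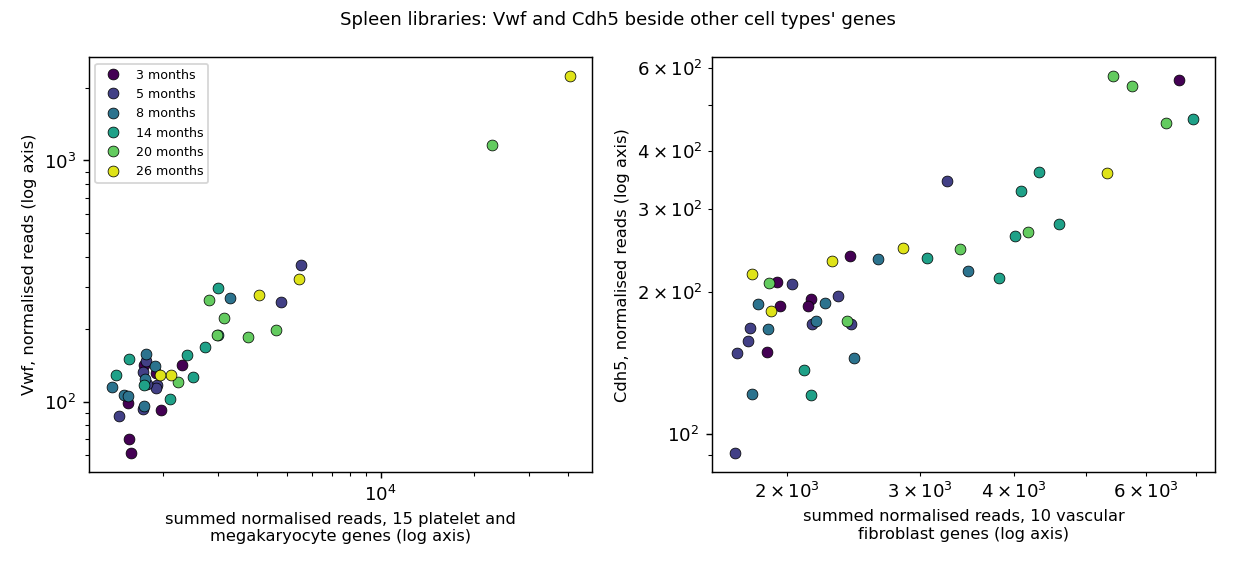
Each point is 1 spleen library of the ageing study, coloured by age. Left, Vwf against the summed normalised reads of 15 platelet and megakaryocyte genes; right, Cdh5 against the sum of 10 vascular fibroblast genes; all axes are logarithmic. The libraries with Vwf of 1161 and 2238 are those with sums of 22768 and 40433.

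The genes most like Vwf and Cdh5 in their deviations from the age means differed by organ. In spleen (n = 45 libraries, which share depth and dissection) the 6 genes closest to Vwf were Itgb3 (r = 0.899), Itga2b (0.886), Ppbp (0.885), Pde5a (0.858), Slc6a4 (0.858) and Rab27b (0.854). Without 26-month replicate 1 and 20-month replicate 2 these r were 0.727, 0.753, 0.719, 0.631, 0.711 and 0.692 (43 libraries). Itgb3, Itga2b and Ppbp are platelet genes, and Slc6a4 is the serotonin transporter, which platelets carry. Those closest to Cdh5 were Col1a2 (0.885), Slc7a2 (0.864), Col5a2 (0.858), Col18a1 (0.849), Adgrf5 (0.842) and Col1a1 (0.838), of which Adgrf5 is an endothelial receptor and 4 are collagens. The part of RNA quality in these spleen values was not tested. In brain (n = 43) the likeness was weaker: Unc119b (0.588), Arl10 (0.566), Smad2 (0.565), Bccip (0.536), Pdgfb (0.526) and Mmp24 (0.517) were closest to Vwf, and Itgb5 (0.570), Dock6 (0.565), S1pr5 (0.552) and Crcp (0.536) were among the 6 closest to Cdh5. Pdgfb is a growth factor that endothelial cells make to recruit pericytes.

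Among themselves Cldn5, Cdh5, Tek and Kdr went together in spleen, with r from 0.70 to 0.89 in their 6 pairs within ages, while Pecam1 was negative with all 8 other members (-0.34 to -0.54). The 10 pairs of general endothelial genes had a median r of 0.70 there, up to 0.89 for Cldn5 and Kdr and down to -0.54 for Pecam1 and Cldn5. In brain the same 10 pairs had a median of 0.05, from -0.40 to 0.41. The 6 pairs of the raised genes had a median of 0.41 in spleen, with Vwf and Abca8a at -0.22, and 0.14 in brain, where Podxl and Acer2 were closest at 0.58. Abca8a in brain had r from -0.31 with Tek to 0.16 with Kdr over the 8 other members. The 20 pairs of a raised and a general gene had a median of 0.25 in spleen and 0.05 in brain. These values describe the libraries and carry no test.

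Brain and spleen came from the same mice, so the deviation of each gene from its age mean could be compared between the organs of 1 animal. The mice of 3 and 20 months, whose values chose 4 of the genes, were left out of the test, as were those of the near-identical brain pairs, which left 27 animals. This restriction was chosen after seeing the data. Abca8a was correlated between organs, with Pearson's r = 0.67 (permutation p = 0.00086, 2-sided, spleens exchanged within ages) and Spearman's rho = 0.62 (permutation p = 0.00163), and with r = 0.51 without the 2 animals farthest from the median in brain. Cldn5 had r = 0.51 (permutation p = 0.00689), rho = 0.53 (permutation p = 0.00621) and 0.51 without the 2 farthest animals. For Vwf the measures differed, with r = 0.40 (permutation p = 0.102) and rho = 0.55 (permutation p = 0.00708). Kdr (r = 0.24), Acer2 (0.20), Pecam1 (0.07), Cdh5 (0.01), Podxl (-0.0015) and Tek (-0.18) gave permutation p-values above 0.05 for both measures. In all 9 such relations were computed for the members, and none passed when adjusted over 13673 genes by normal theory, where 0% of genes passed (1031 had an unadjusted p under 0.05). The adjusted p of Abca8a was 0.294, that of Cldn5 0.510 and that of Vwf 0.662. The median r over all genes was 0.062.

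With the mice of 3 and 20 months included, 41 animals as first planned, 0.0366% of all genes passed and no member, and the values are given as a description without a p. There r was 0.56 for Abca8a, 0.35 for Cldn5, 0.32 for Vwf, 0.30 for Acer2 and between -0.12 and 0.08 for the other 5. In the 34 of these animals whose spleen libraries had at least 5000000 reads, r was 0.73 for Abca8a, 0.35 for Acer2, 0.21 for Cldn5 and 0.14 for Vwf.

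In the mTOR study the gene Mtor itself was 218, 242 and 286 normalised reads in mTOR mice of 5 months against 326, 339 and 368 in WT mice of that age, and 230, 256 and 276 against 330, 342 and 346 in the older mice. Mtor was lower in every mTOR spleen than in every WT spleen. Over both ages, Kdr, Abca8a, Podxl, Cdh5 and Tek rose in mTOR against WT spleens, 5 of 9 members, where 7.93% of 15512 genes passed in either direction and 3.20% in this one. The median log2 difference of the 9 members was 0.57 against 0.01 over all genes.

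Kdr, the VEGF receptor, was 525.7, 540 and 591 in young mTOR against 379, 415 and 439 in young WT spleens, and 768, 875 and 982 against 405, 512 and 563 in old ones. Groups of the same age did not overlap, and the log2 difference was 0.63 ± 0.10 with adjusted p = 0.00257. Abca8a was 318, 413 and 628 against 147, 190 and 258 in young and 415, 701 and 973 against 237, 313 and 353 in old spleens, 1.16 ± 0.22 with adjusted p = 0.00818. Podxl was 200, 216 and 270.7 against 111, 194 and 194 in young and 320, 501 and 594 against 176, 177 and 195 in old spleens, 0.91 ± 0.18 with adjusted p = 0.00825. For each of the 3 genes every mTOR spleen was above every WT spleen of its age. The share of all genes whose groups separate in this way was not counted. Cdh5 differed by 0.57 ± 0.11 (adjusted p = 0.0103), and all 6 mTOR spleens, from 384 to 597, were above all 6 WT spleens, from 250 to 341. Tek differed by 0.72 ± 0.18 (adjusted p = 0.0295) with overlapping groups, and its adjusted p rose to between 0.0537 and 0.0769 when any 1 of 8 of the 12 spleens was left out: WT young replicate 2 or 3, mTOR young 1 or 2, WT old 1 or 2, or mTOR old 1 or 3. Over all genes the 1230 calls became 753 and 728 without mTOR young replicates 1 and 2 and 785 without WT old replicate 1, and the other 4 calls of members held.

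Pecam1 (0.29, adjusted p = 0.0693), Acer2 (0.38, 0.175), Cldn5 (0.10, 0.810) and Vwf (0.09, 0.814) did not pass in limma. Pecam1 passed with DESeq2 (0.29, 0.0336) and without WT young replicate 1 (0.35, 0.0245). The 95% interval of the Vwf difference ran from -0.30 to 0.48 and that of Cldn5 from -0.31 to 0.50. Vwf averaged 126 ± 26.7 in young WT, 140 ± 15.03 in young mTOR, 177 ± 91.3 in old WT and 167 ± 26.1 in old mTOR spleens (SD, n = 3 each). Old WT replicate 3 had the highest value, 282.

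Of 23 further pan-endothelial genes 11 were called higher in mTOR spleens and none lower (median 0.66), with Emcn at 2.45 ± 0.31 (adjusted p = 0.000543), Cd34 at 0.94 (0.00268) and the guidance receptor Robo4 at 1.13 (0.00302) in limma. Of 10 VEGF pathway genes 2 were called higher, Kdr and its ligand Vegfa (0.84 ± 0.11, adjusted p = 0.000809). Of 5 angiopoietin-Tie genes 2 were, Tek and Tie1 (0.41, adjusted p = 0.0404). Of 5 ABCA5-subfamily genes 3 were: Abca8a, Abca8b (1.05) and Abca9 (0.85). Of 15 platelet and megakaryocyte genes none was called higher and 3 were lower, Gp6 (-0.88), Pf4 (-1.10) and Gp9 (-0.98), with a median of -0.75. The summed platelet level was 2081 to 3176 in mTOR and 2307 to 6831 in WT spleens, and 11 B cell genes summed to between 85096 and 161623 in mTOR and between 140643 and 432725 in WT spleens. The part of these cells in the members' differences was not tested.

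**Figure D4:**
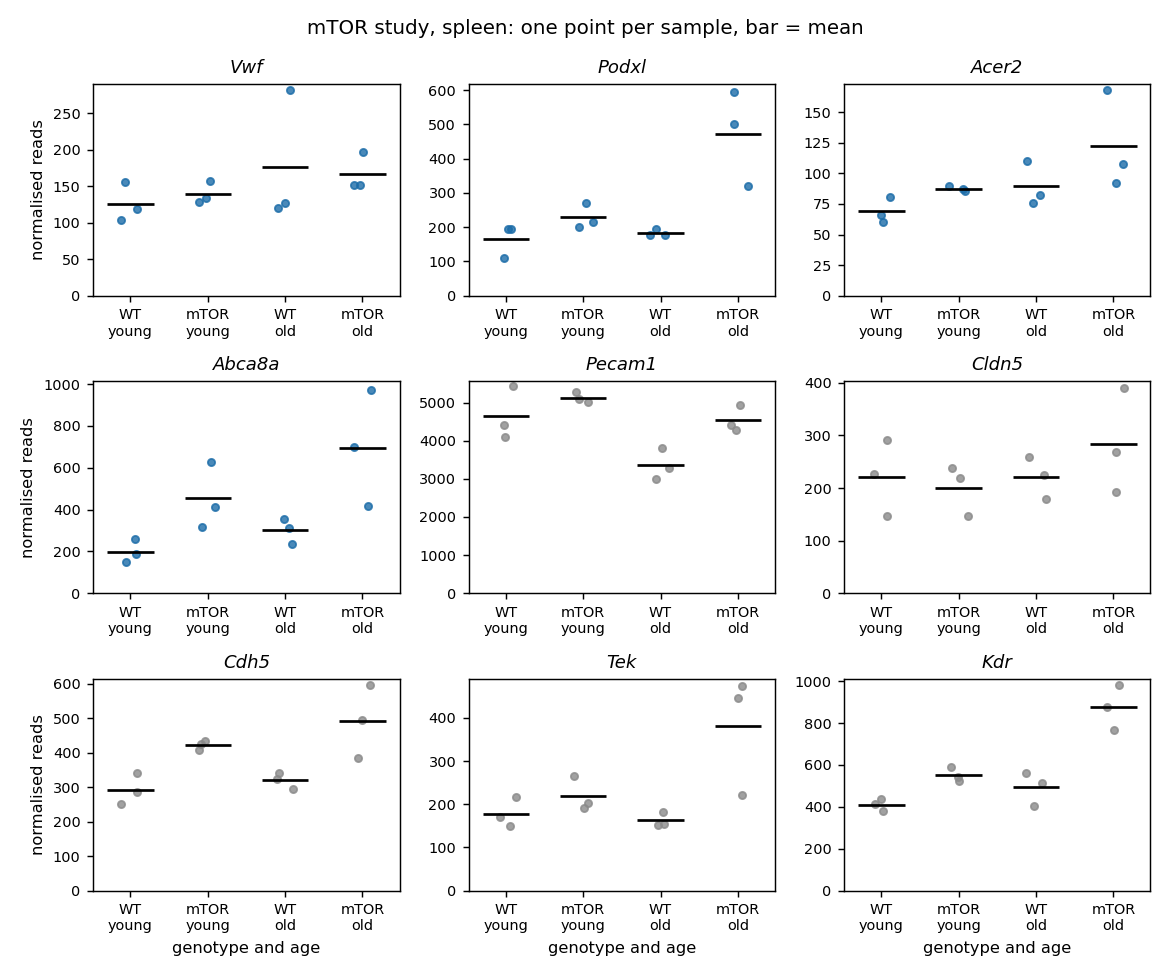
Normalised reads of the 9 genes in spleens of the mTOR study (vertical axis) by genotype and age class (horizontal axis); each point is 1 spleen and the bar is the mean of 3. For Kdr, Abca8a, Podxl and Cdh5 every mTOR point is above every WT point of the same age, and Vwf overlaps. The share of all genes that separate so was not counted.

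Age itself gave no called member in the mTOR study. Old against young over both genotypes, 0.0258% of genes passed (4 genes), and no member. Kdr came nearest at 0.45 ± 0.10 (adjusted p = 0.120), Podxl stood at 0.59 ± 0.18 (0.183), Abca8a at 0.60 ± 0.22 (0.255), Acer2 at 0.39 (0.310) and Vwf at 0.32 (0.496), and Pecam1 was negative at -0.32 ± 0.09 (0.176). DESeq2 on the recovered reads called Kdr (adjusted p = 0.00434), Podxl (0.0454) and, lower, Pecam1 (0.0439) in this comparison. In WT mice alone 0% of genes passed in limma (1748 genes had an unadjusted p under 0.05, and DESeq2 called 99). The 4 genes raised at 20 months stood there at 0.39 for Vwf, 0.18 for Podxl, 0.36 for Acer2 and 0.62 for Abca8a, with 95% intervals that included 0 for all 4. In mTOR mice alone 0.00645% of genes passed (1 gene, lower; 1450 had an unadjusted p under 0.05), and no member. Podxl stood there at 1.01 (95% interval 0.52 to 1.49, adjusted p = 0.302 in limma) and Kdr at 0.66 (0.38 to 0.93, adjusted p = 0.280), and for both every old mTOR spleen was above every young one. Acer2 separated in the same way (0.43, adjusted p = 0.597 in limma), and Pecam1 in the other direction (-0.18, 0.730). The share of all genes that separate so was not counted. Tek stood at 0.72 (0.22 to 1.23, adjusted p = 0.432) with overlapping groups. The age effect did not pass as different between the genotypes for any gene, 0% of those tested (850 had an unadjusted p under 0.05; edgeR and DESeq2 called 0), and the largest differences among members were 0.84 ± 0.36 for Tek and 0.83 ± 0.35 for Podxl, each with adjusted p = 0.787.

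**Figure D5:**
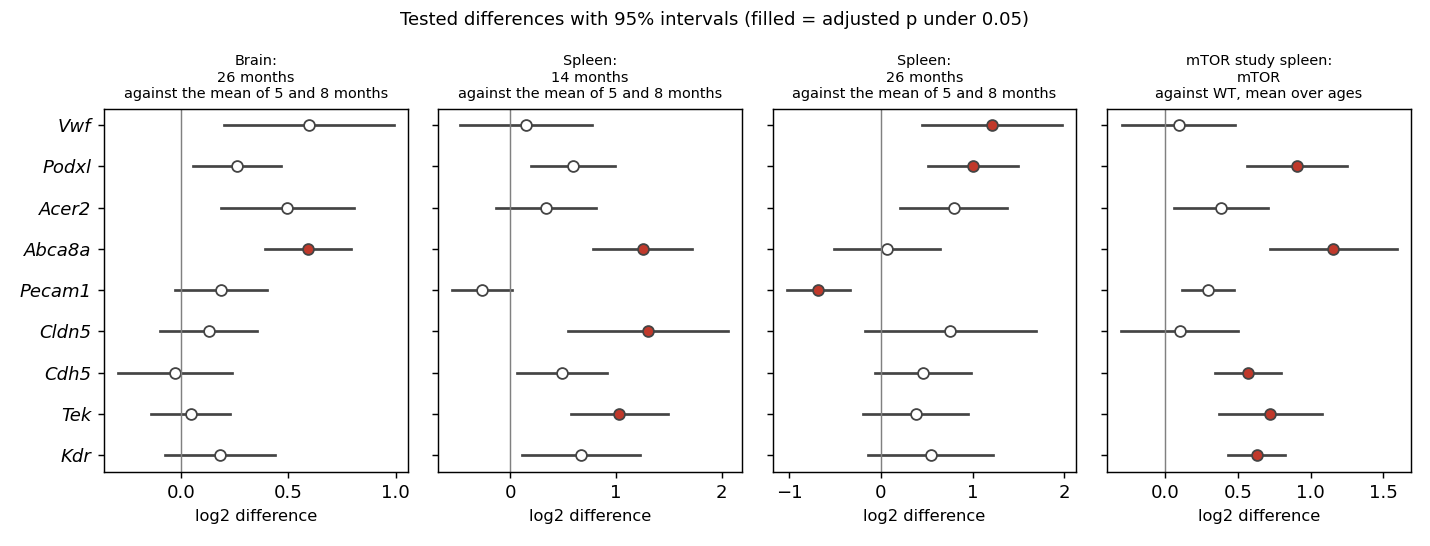
Log2 differences (horizontal axis) of the 9 genes (vertical axis) in 4 tested comparisons, with 95% intervals; filled points passed an adjusted p of 0.05. Abca8a is filled in brain at 26 months, in spleen at 14 months and in mTOR spleens, and not in spleen at 26 months, where it stands at 0.07.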

How the data were processed

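Bulk RNA-seq tables of 45 brain and 45 spleen libraries of ageing mice and 12 spleen libraries of the mTOR study were analysed separately. The authors deposited a signal per gene, read counts divided by 1 factor per library. Tools named in the submitters' processing notes are HISAT2 2.1.0 and DESeq2, with R 3.5.1, bcl2fastq 2.20, SAMtools and cutadapt. Every deposited signal was a whole multiple of a library's smallest step within 0.01 read, which gave whole reads. How reads were assigned to genes is not given in the sources used here.

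The members and all gene lists were chosen with earlier results of these data known. Log2(value + 1) was fitted with limma 3.58.1 over all groups of a table, for genes with a value of 10 or more in at least 5 libraries (3 in the mTOR study), and p-values were adjusted by Benjamini-Hochberg over all genes. Fold changes are on that log2 scale. The 20- and 3-month samples chose 4 members, so their difference got no test, and they were left out of the tested correlations between organs. edgeR 4.0.16 and DESeq2 1.42.0 on the recovered reads, other pseudocounts, scaling, filters, omitted libraries and a Malat1 covariate were alternatives. All 9 members passed the filter in the 3 tables. On simulated data in which 200 genes changed 2-fold, 84.5% were recovered for brain at 26 months (15546 genes), 47.5% for spleen at 26 months (16243 genes) and 71.5% for mTOR against WT (15512 genes). Named genes were the members, up to 4 called genes of a list or the 1 with the smallest p, and the 6 genes most like Vwf and Cdh5 with a mean of at least 50. Some of those most like Cdh5 in brain are not reported here. Replicates are separate animals. Replicate numbers are the order of deposition.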

Additional observations from a re-analysis of the deposited data

Results flagged for a closer look

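Within an age group, a sample is named here when its gap to the nearest other sample was a large part of the group's whole range by Dixon's criterion. Of 108 groups of a gene and an age tested, chance would give about 1 in 20 for normally distributed values, and 20 were found. The genes share libraries, so the groups are not independent and the 20 are not separate events. In brain, 5-month replicate 7 had Vwf of 145 (next 86.2), 8-month replicate 2 had Acer2 of 164 (next 114) and 8-month replicate 5 had Tek of 169 (next 143). Brain 26-month replicate 3 was lowest in Cldn5, at 127 (next 168), and in Cdh5, at 37.0 (next 64.0).

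In spleen, single libraries were high in Vwf at 8 months (replicate 2, 270), 14 months (replicate 6, 296), 20 months (replicate 2, 1161) and 26 months (replicate 1, 2238, next 322). The 26-month replicate 1 was also high in Podxl (345, next 163) and Acer2 (153, next 51.0). The 3-month replicate 5 was high in 6 members: Podxl 213, Abca8a 381, Cldn5 546, Cdh5 565, Tek 409 and Kdr 886. The 5-month replicate 6 was high in Cdh5 (345) and Tek (268), and the 8-month replicate 1 in Tek (224). The 26-month replicate 1 and 20-month replicate 2 had the highest summed platelet and megakaryocyte levels, 40433 and 22768, and 3-month replicate 5 had a summed vascular fibroblast level of 6632; their part in these values was not tested.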

How the results depend on the processing

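No paired analysis was possible because the ages and genotypes compared hold different animals and replicate numbers are the order of deposition. Over all comparisons, 1360 results of single members kept their direction and side of the threshold, 28 lost and 21 gained a call, and 40 changed sign, none of a difference that had passed; the cause was not tested. The brain call of Abca8a at 26 months and the mTOR calls of Kdr, Abca8a, Podxl and Cdh5 held under every alternative run.

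Counts of genes called moved more than those of members. For brain at 26 months against 5 and 8 months the 69 became 118 with edgeR, 143 with DESeq2 and 35 to 68 with 1 26-month brain left out, and for 26 against 14 months the 26 became 58 with DESeq2, 14 with those ages alone and 7 to 23. For spleen at 26 months the 1279 became 657 without the low filter, 1935 with edgeR, 2348 with DESeq2, 3571 without libraries under 5000000 reads, 94 with Malat1 as a covariate and 16 to 3988 with 1 spleen left out. For spleen at 14 months the 560 became 853 with edgeR, 1156 with DESeq2, 1231 with those ages alone, 327 without the shallow libraries and 2116 with Malat1. For 26 against 14 months in spleen the 890 became 1484 with edgeR, 1780 with DESeq2, 255 with those ages alone, 2546 without the shallow libraries and 187 to 2426 with 1 spleen left out. For mTOR against WT the 1230 became 1897 with DESeq2, 728 without the 21-month mice and 728 to 1306 with 1 spleen left out. For old against young over genotypes the 4 became 1 and 2 with pseudocounts of 0.5 and 5, 1 without the filter, 1 with edgeR, 374 with DESeq2, 7 without the 21-month mice and 0 to 92; in WT alone the 0 became 1 with a pseudocount of 5, 99 with DESeq2 and 0 to 2; for the difference of age effects the 0 became 1 without the 21-month mice and 0 to 1.

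Among members, Pecam1 in brain at 14 months went from -0.02 to 0.0012 with edgeR and 0.00055 with DESeq2. With 1 brain left out, the 26-month differences from 5 and 8 months ranged from -0.078 to 0.14 for Cdh5 and from -0.0099 to 0.093 for Tek, and those from 14 months from -0.025 to 0.12 for Kdr, -0.12 to 0.10 for Cdh5 and -0.030 to 0.072 for Tek. In spleen, 26 against 14 months ranged from -0.17 to 0.073 for Cdh5 (0.0072 without shallow libraries) and from -0.33 to 0.13 for Kdr (0.13 without them). At 26 against 5 and 8 months Abca8a ranged from -0.066 to 0.17, and with Malat1 as a covariate Abca8a and Cldn5 were both at -0.081 and Kdr at -0.069. In the mTOR study, mTOR against WT ranged from -0.034 to 0.23 for Cldn5 and -0.015 to 0.29 for Vwf. Old against young in WT ranged from -0.23 to 0.26 for Cldn5 (-0.014 with edgeR, -0.0069 with DESeq2), -0.086 to 0.32 for Podxl, -0.24 to 0.030 for Tek and -0.0071 to 0.60 for Vwf. The difference of age effects ranged from -0.31 to 0.31 for Abca8a (0.020 with edgeR, 0.022 with DESeq2, 0.34 without the 21-month mice), -0.17 to 0.26 for Acer2, -0.092 to 0.23 for Cdh5 and -0.35 to 0.26 for Vwf. Spleen differences at 26 months rest on 5 animals, and leaving out replicate 1 or 5 ended both the Vwf and the Podxl call. The omission of 3-month replicate 5 or 20-month replicate 2 was chosen after seeing the data.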
